A study of Mus musculus with 7 samples.

Results

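The NFI family comprises 4 transcription factor genes in the mouse, *Nfia*, *Nfib*, *Nfic* and *Nfix*, and all 4 were found by their gene names among the 48440 genes of the count table. Bulk RNA-seq had been performed on 7 libraries of whole retina at E16, each from pooled retinas of one genotype. The groups were 1 library of genotype Chx10Cre, without a floxed allele in its label (WT), 3 of Chx10-Cre;Ptbp1lox/WT heterozygotes (Het1 to Het3) and 3 of Chx10-Cre;Ptbp1lox/lox homozygotes (KO1 to KO3). All groups carried the Cre transgene, which is active in retinal progenitors, so retinal cells of other origin, such as vessels and microglia, keep the floxed gene. *Ptbp1* encodes an RNA-binding protein that represses neuronal exons. The study asked whether *Ptbp1* is needed for neurogenesis and the choice of cell fate in the retina. It reported a moderate shift toward late-stage progenitor and photoreceptor expression at E16. It found no change in proliferation in newborn retina or in cell type composition in mature retina. *Nfix* is among the late-stage progenitor genes that the study names. All 4 members were among the 20019 genes that passed the expression filter.

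NFI proteins bind DNA as dimers through a conserved amino-terminal domain and recognise the half-site TTGGC, usually as a pair of inverted copies. In the central nervous system they are known for the switch of progenitors from making neurons to making glia. In the retina, *Nfia*, *Nfib* and *Nfix* mark late-stage retinal progenitor cells (RPCs) and Müller glia, and they are needed for progenitors to leave the cell cycle and to form late-born cells. *Nfic* is expressed more broadly and is best known from tooth and bone. *Nfix* also has a role in fetal skeletal muscle, where it switches on fetal muscle genes.

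Start-site windows of *Nfix*, *Nfia* and *Nfic* are printed here, since *Nfix* was the member with the largest difference between genotypes and *Nfic* the one with the smallest. Each window runs from 250 bases before to 50 bases after a transcript start (RefSeq, GRCm38.p6, 5′ to 3′ on the gene's strand). By symbol, 3 of the 4 members matched that table, all but *Nfib*. Capitals mark TTGGC on either strand, which reads GCCAA on the other strand. The first *Nfix* window lies at chr8:84772826-84773125 and the second at chr8:84780033-84780332, both on the minus strand. The *Nfia* window lies at chr4:97581693-97581992 on the plus strand and the *Nfic* window at chr10:81427124-81427423 on the minus strand. These RefSeq starts differ from the starts of the gene spans given below. The *Nfia* window lies before its span, and the *Nfic* and *Nfix* windows lie inside theirs.
Nfix, inner start: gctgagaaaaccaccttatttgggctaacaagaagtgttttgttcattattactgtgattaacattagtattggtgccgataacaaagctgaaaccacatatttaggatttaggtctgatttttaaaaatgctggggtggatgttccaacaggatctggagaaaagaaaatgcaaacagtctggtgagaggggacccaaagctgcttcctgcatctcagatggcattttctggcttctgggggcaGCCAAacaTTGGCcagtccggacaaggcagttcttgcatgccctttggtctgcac
Nfix, outermost RefSeq start: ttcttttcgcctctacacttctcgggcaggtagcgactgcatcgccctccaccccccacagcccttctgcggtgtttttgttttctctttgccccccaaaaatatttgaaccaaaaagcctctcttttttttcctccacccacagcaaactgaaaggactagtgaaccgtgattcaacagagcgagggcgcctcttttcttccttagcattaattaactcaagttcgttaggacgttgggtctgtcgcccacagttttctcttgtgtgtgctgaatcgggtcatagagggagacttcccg
Nfia: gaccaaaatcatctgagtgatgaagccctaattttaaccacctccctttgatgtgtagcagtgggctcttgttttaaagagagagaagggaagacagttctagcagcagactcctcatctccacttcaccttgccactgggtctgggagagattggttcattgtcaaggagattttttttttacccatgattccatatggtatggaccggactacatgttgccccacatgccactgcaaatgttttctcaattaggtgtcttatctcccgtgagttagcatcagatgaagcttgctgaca
Nfic: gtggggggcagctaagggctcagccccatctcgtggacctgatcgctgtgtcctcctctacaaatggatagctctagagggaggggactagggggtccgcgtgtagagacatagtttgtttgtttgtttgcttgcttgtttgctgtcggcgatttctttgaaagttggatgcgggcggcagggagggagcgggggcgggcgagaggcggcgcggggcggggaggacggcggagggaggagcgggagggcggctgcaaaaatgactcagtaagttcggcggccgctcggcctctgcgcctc
The inner *Nfix* window holds 2 copies of TTGGC in opposite orientation, at positions 246 and 254 counted from its first base. The other windows printed hold 0. Of 4 *Nfix* windows in the RefSeq table, 3 hold at least 1 copy, and the copies in the other two, not printed, start at positions 76 and 279. The half-site is common, since 46.7% of 32851 windows of this length hold it. The full inverted repeat, TTGGC and GCCAA with 5 bases between them, was found in 12 windows (0.0365%) and in 0 of the members' windows. Each full repeat also counts as half-sites.

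The libraries held between 120593979 and 171117305 counts, and every member had at least 1218 counts in every library. *Ptbp1* itself was expressed at 381 CPM (TMM-normalized counts relative to the total of each library) in WT, at 210 to 234 CPM in Het and at 6.04 to 46.9 CPM in KO. As a check of the tissue, the eye field transcription factor genes *Pax6*, *Six3* and *Lhx2* were high in every library, at 514 to 580.5 CPM, 439.7 to 506 CPM and 276 to 305 CPM. Het1 stood apart: skeletal muscle markers summed to 318 CPM there and to 14.0 to 16.9 CPM in the other 6 libraries, mesenchyme markers to 501 CPM against 20.7 to 72.3 CPM, and pigment cell markers to 535 CPM against 21.3 to 65.3 CPM. Each member is therefore given with and without Het1. In pooled tissue, more cells of a type and more RNA per cell cannot be told apart.

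*Nfix* (ENSMUSG00000001911.16) spans 100.5 kb on chromosome 8 of GRCm38, from 84699876 to 84800344 on the minus strand, with 8 annotated transcripts of which 5 are protein-coding. The WT library held 10.9 CPM, the Het libraries 21.4, 10.2 and 11.3 CPM in the order of their numbers, and the KO libraries 37.9, 29.9 and 31.0 CPM. Every KO library lay above every Het library and WT, the lowest KO value being 1.40 times the highest Het value, which came from Het1. Het2, Het3 and WT lay close together. *Nfix* rose from 14.3 ± 6.15 CPM in Het to 32.9 ± 4.35 CPM in KO (mean ± SD, n = 3 each). Its log2 fold change (LFC) was 1.201, with a standard error (SE) of 0.283 and an adjusted p of 0.0434 by edgeR's quasi-likelihood test. Of all genes tested, 2.42% had a larger LFC.
Het1 set most of the spread in Het, at 1.99 times the mean of Het2 and Het3. Without it, the Het mean was 10.8 CPM, the KO mean was 3.06 times that, and the LFC was 1.61 (SE 0.120, adjusted p = 0.00419, edgeR). The KO mean was 3.01 times the WT value and the Het2 and Het3 mean 0.984 times it. With any other Het or KO library left out, the LFC stayed between 1.01 and 1.27, but the adjusted p rose to between 0.0667 and 0.133 (edgeR). 

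*Nfib* (ENSMUSG00000008575.17) is the longest of the genes, spanning 415.6 kb on chromosome 4 from 82290173 to 82705750 on the minus strand. From 43.3 CPM in WT, values went over 52.1, 47.9 and 49.8 CPM in the Het libraries to 66.4, 62.5 and 78.6 CPM in the KO libraries. The 3 KO libraries lay above all others, with KO3 the highest. The means were 49.9 ± 2.12 CPM for Het and 69.2 ± 8.39 CPM for KO (SD over 3 libraries), and the rise passed the test with an LFC of 0.47 (SE 0.0850, adjusted p = 0.0213, edgeR). Without Het1 the LFC was 0.50 (SE 0.0975, adjusted p = 0.0370, edgeR). The call was lost without Het2 (LFC 0.44, adjusted p = 0.0849, edgeR) and without Het3 (0.47, adjusted p = 0.0794, edgeR).

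*Nfia* (ENSMUSG00000028565.18), the member best known for starting gliogenesis in the spinal cord, lies 15.1 Mb further along chromosome 4, from 97772734 to 98118874 on the plus strand. WT gave 20.1 CPM, the Het libraries gave 22.9, 20.8 and 21.3 CPM, and the KO libraries 25.5, 25.7 and 30.6 CPM. The genotypes did not overlap, although KO1 and KO2 were only slightly above Het1. The mean of 27.3 ± 2.85 CPM in KO against 21.7 ± 1.08 CPM in Het (SD over 3 libraries) corresponds to an LFC of 0.33 (SE 0.0814, adjusted p = 0.0481, edgeR). Of the member calls this one held under the fewest alternatives, 7 of 15, where adjusted p alone could not end a call. Leaving out any 1 of the 6 Het and KO libraries ended it, among them Het1 (LFC 0.37, adjusted p = 0.0588, edgeR). Without KO3 the adjusted p was 0.0471 (edgeR), but the LFC of 0.25 was under the fold limit.

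*Nfic* (ENSMUSG00000055053.17) lies on chromosome 10 from 81396186 to 81455635 on the minus strand. Here WT stood at 39.8 CPM, the Het libraries at 52.1, 43.9 and 45.2 CPM and the KO libraries at 51.4, 48.8 and 50.3 CPM. Het1 was the highest of all libraries, so Het and KO overlapped, and the means were 47.1 ± 4.44 and 50.1 ± 1.32 CPM (SD, n = 3 each). The LFC was 0.091 (SE 0.0663, adjusted p = 0.395, edgeR), with an interval of 2 standard errors on each side from -0.042 to 0.22. Without Het1 every KO library lay above Het2 and Het3, and the LFC was 0.17 (SE 0.0387, adjusted p = 0.0519, edgeR). *Nfic* is also the member nearest to the deleted gene, 1.53 Mb beyond *Ptbp1* on the same chromosome. Of the 97 tested genes that lie between them, 1 was called in either direction, beside 7.22% of all genes tested.

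**Figure D1:**
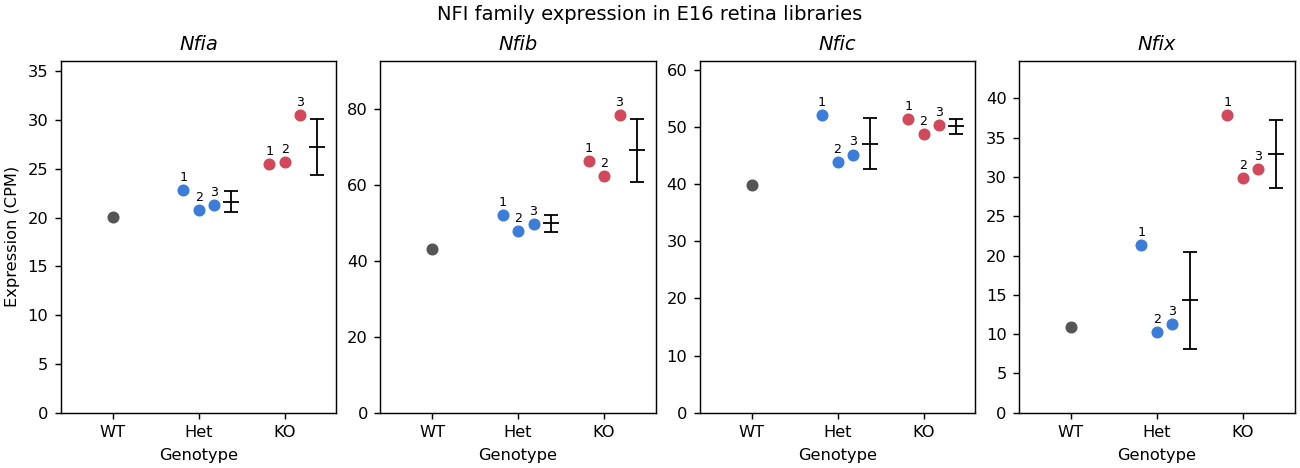
Expression of each NFI gene in CPM (vertical axes from 0) by genotype, with 1 point per library, replicate numbers above the Het and KO points, and the mean and SD of 3 libraries beside them. The KO points of *Nfix* (29.9 to 37.9 CPM), *Nfib* and *Nfia* sit above all Het points, while for *Nfic* the Het1 point (52.1 CPM) lies above the KO points.

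Genes were called where the adjusted p was under 0.05 and the difference exceeded 1.2-fold. By that rule 3 of the 4 members were called higher in KO and 0 lower, where 4.01% of all genes tested were called higher and 7.22% in either direction. The same 3 members did not overlap between Het and KO, which held for 18.6% of genes tested in that direction and 36.3% in both. The study's own text names *Nfix* as higher in these libraries, so its part in that count is not independent. DESeq2 called the same 3 members, with LFCs of 1.1996, 0.47 and 0.33 and adjusted p of 0.0107, 4.61e-07 and 0.00128 for *Nfix*, *Nfib* and *Nfia*, and called 5.96% of the genes to which it gave an adjusted p as higher in KO. For *Nfic* its adjusted p was 0.450. Without Het1, edgeR called *Nfix* and *Nfib*, beside 3.50% of genes called higher. Against WT, which has no replicate and allows no test, the KO means of *Nfix*, *Nfib*, *Nfia* and *Nfic* were 3.01, 1.60, 1.36 and 1.26 times as high, all past 1.2-fold, as were 19.1% of the genes tested. The Het means were 1.31, 1.15, 1.08 and 1.184 times the WT value, and 12.7% of genes tested were past 1.2-fold upward. Without Het1 the first of these was 0.984.

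**Figure D2:**
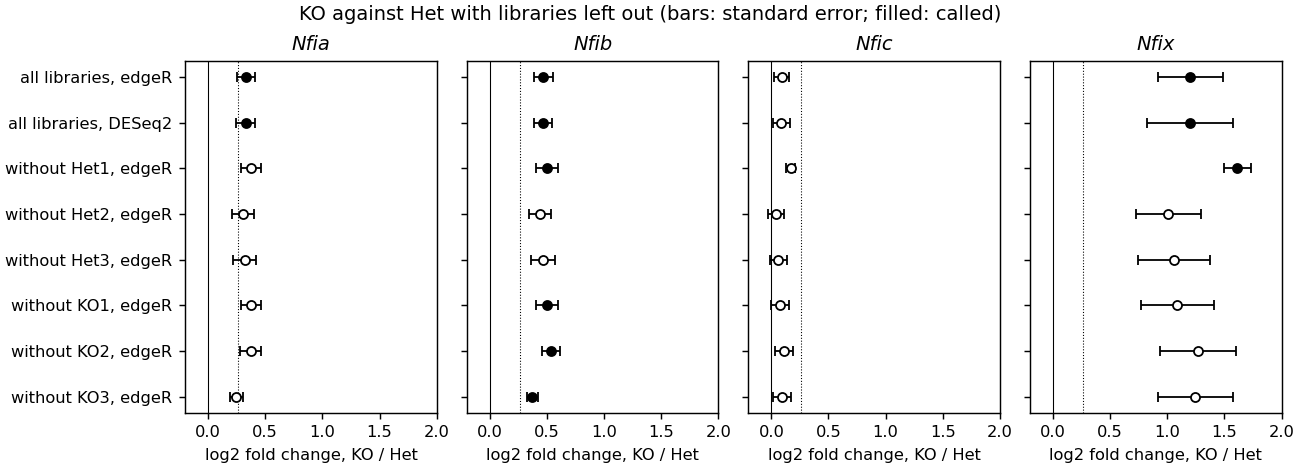
The log2 fold change of KO over Het for each member (horizontal axes) with all libraries and with each Het or KO library left out, with bars for the standard error and filled points where the gene was called; the dotted line marks a 1.2-fold difference. The direction was positive in every fit shown, and *Nfix* was called by edgeR with all libraries (1.201) and without Het1 (1.61).

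To compare the members with each other, levels were set per length as TPM (the length-scaled share of all transcripts, over the union of annotated exons). In WT the order was *Nfic* (22.9 TPM), *Nfib* (11.04 TPM), *Nfia* (7.03 TPM) and *Nfix* (5.68 TPM), without replicate. In Het it was *Nfic* (26.4 ± 2.49 TPM), *Nfib* (12.4 ± 0.521 TPM), *Nfia* (7.39 ± 0.370 TPM) and *Nfix* (7.24 ± 3.11 TPM; SD, n = 3 each), and *Nfia* and *Nfix* did not differ beyond their spread. In KO, *Nfic* (29.0 ± 1.12 TPM) was again the most abundant and *Nfia* (9.63 ± 1.37 TPM; SD, n = 3 each) was now the least. *Nfib* (17.8 ± 2.77 TPM) and *Nfix* (17.1 ± 1.79 TPM; SD, n = 3 each) overlapped there, at 15.96 to 20.97 and 15.5 to 19.1 TPM.
The order of *Nfix* and *Nfia* turned between libraries. The ratio of *Nfix* to *Nfia* level was 0.807 in WT, 0.728 in Het2 and 0.788 in Het3, but 1.39 in Het1 and 2.20, 1.72 and 1.51 in KO1 to KO3. With the length of the longest transcript instead, the ratios were 0.948, 0.855 and 0.925 in the first 3 of these and 1.63 to 2.59 in the other 4, so the turn held under both lengths.

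The summed level of the family was 46.6 TPM in WT, 60.8, 48.9 and 50.6 TPM in Het1 to Het3 and 72.8, 68.6 and 79.3 TPM in KO1 to KO3. The KO libraries lay above the rest, with a mean of 73.6 ± 5.37 TPM against 53.4 ± 6.47 TPM in Het (SD, n = 3 each; two-sided exact permutation p = 0.1, the smallest that 3 against 3 can give). Of the rise of 20.1 TPM, *Nfix* made up 49.2%, *Nfib* 26.7%, *Nfic* 13.0% and *Nfia* 11.1%. Leaving out Het1, the rise was 23.8 TPM and the part of *Nfix* 49.1%.
Shares of the family level were compared too, since a share within a library does not depend on the scaling between libraries. *Nfix* took 12.2% of the family level in WT, 17.8%, 10.6% and 11.3% in Het1 to Het3 and 26.2%, 22.6% and 21.3% in KO1 to KO3. *Nfic* took 49.1% in WT, 48.1% to 50.5% in Het and 38.2% to 41.0% in KO, while its own mean level was 26.4 TPM in Het and 29.0 TPM in KO. For both, Het and KO did not overlap, with mean differences of 10.1 and -10.0 percentage points (exact permutation p = 0.1 each, two-sided, again the smallest possible with n = 3 each). The shares of *Nfib*, 23.4% ± 1.79 in Het and 24.1% ± 2.08 in KO, and of *Nfia*, 13.9% ± 0.933 and 13.1% ± 1.12 (SD, n = 3 each), overlapped between the genotypes (exact permutation p = 0.6 and 0.4).

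**Figure D3:**
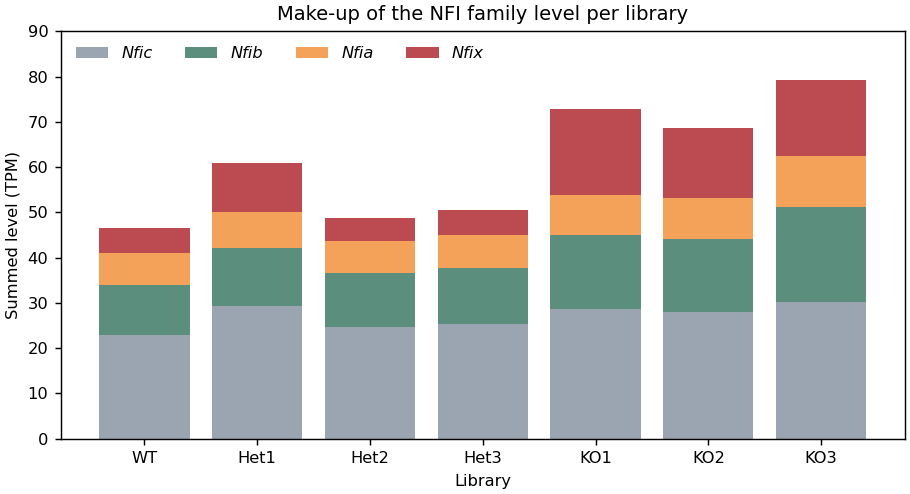
Level of each NFI gene in TPM, stacked in 1 bar per library (vertical axis from 0). The bars of KO1 to KO3 reach 68.6 to 79.3 TPM, and the *Nfix* segment takes 21.3% to 26.2% of them against 10.6% to 17.8% in the Het libraries.

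All 4 members were higher in Het1 than in Het2, Het3 and WT, as were 29.5% of the genes tested, and in Het1 markers of other tissues were high. Of the skeletal muscle list, 14 of 15 genes were in the table and 13 of these were highest in Het1, led by *Myh3* (88.8 CPM), *Acta1* (64.2 CPM) and *Mylpf* (41.3 CPM), which encode contractile proteins of fetal muscle. In the other libraries these 3 ranged from 0.680 to 2.96 CPM, and *Myog*, a defining muscle regulator at 4.99 CPM in Het1, was at most 0.0226 CPM. Of the mesenchyme list 11 of 12 genes were highest in Het1, with the collagen genes *Col1a2*, *Col1a1* and *Col3a1* at 137, 129 and 117 CPM. Of the pigment cell list 7 of 8 were, with *Pmel*, *Dct* and *Tyrp1*, genes of melanin-forming organelles, at 321, 98.1 and 58.2 CPM. *Rpe65*, a defining gene of mature pigment epithelium, was at 0 in Het1. Beside these, *Nfix* in Het1 was 1.99 times, *Nfic* 1.17 times, *Nfia* 1.09 times and *Nfib* 1.07 times the mean of Het2 and Het3; 13.0% of genes tested were past 1.2-fold in that direction, and among the members *Nfix* was. The part of these tissues in the Het1 values was not tested.

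Markers also moved among the KO libraries. Of all genes tested, 4.01% were called higher and 3.21% lower in KO. Mesenchyme markers summed to 20.7, 25.6 and 72.3 CPM in KO1 to KO3, and pigment cell markers to 27.9, 21.3 and 61.9 CPM. Het2 and Het3 were at 40.0 and 62.6 CPM for mesenchyme and at 32.5 and 65.3 CPM for pigment cells. Lens markers (10 genes, led by *Cryaa*, *Cryab* and *Cryba1*, 2 of them called lower in KO) summed to 36.7 to 103 CPM in Het and to 3.01, 5.93 and 49.7 CPM in KO1 to KO3, with *Lim2* at 0 in all libraries. Erythroid markers (6 genes, led by *Hbb-bs*, *Hba-a1* and *Hba-a2*) summed to 187 to 526 CPM in Het and to 36.5, 24.02 and 297 CPM in KO, with 0 called. Of 8 endothelial and pericyte genes *Kdr*, which progenitors also express, was called higher (LFC 0.44) and *Pdgfrb* lower (-0.41). *Cldn5*, the next most abundant, was not called (LFC 0.23, adjusted p = 0.217, edgeR). The median LFC of the list was -1.43. The endothelial genes *Pecam1* and *Cdh5*, which define vessels, were at 1.94 to 5.67 and 3.21 to 9.77 CPM in Het, but at 0.822 and 0.988 CPM in KO1, 0.540 and 0.555 CPM in KO2 and 3.05 and 4.41 CPM in KO3. For *Nfix*, KO3 (31.0 CPM) lay between KO1 and KO2, whereas *Nfia* and *Nfib* were highest in KO3. Of 6 microglial markers, 1 was called higher in KO (*Cx3cr1*, LFC 0.71, adjusted p = 0.0429, edgeR). The count was 0 without Het1 and 0 with the replicate number as a block. *Csf1r* (LFC 0.50, adjusted p = 0.102) and *C1qa* (0.61, adjusted p = 0.0790, both edgeR) were not called. The sum was 38.3 to 54.8 CPM in Het and 57.2 to 75.9 CPM in KO. Astrocytes that enter the retina from the optic nerve express NFI genes too. Of the 5 astrocyte markers *Gfap* and *S100b* were called higher. *Pax2*, the defining one, stood at 7.78 to 8.87 CPM in Het and 6.63 to 9.97 CPM in KO. *Pdgfra* (LFC 0.091, adjusted p = 0.715) and *Aqp4* (0.12, adjusted p = 0.813, both edgeR) were not called. The sums were 22.2 to 28.8 CPM in Het and 29.1 to 36.4 CPM in KO. The part of these cells in the NFI values was not tested.

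**Figure D4:**
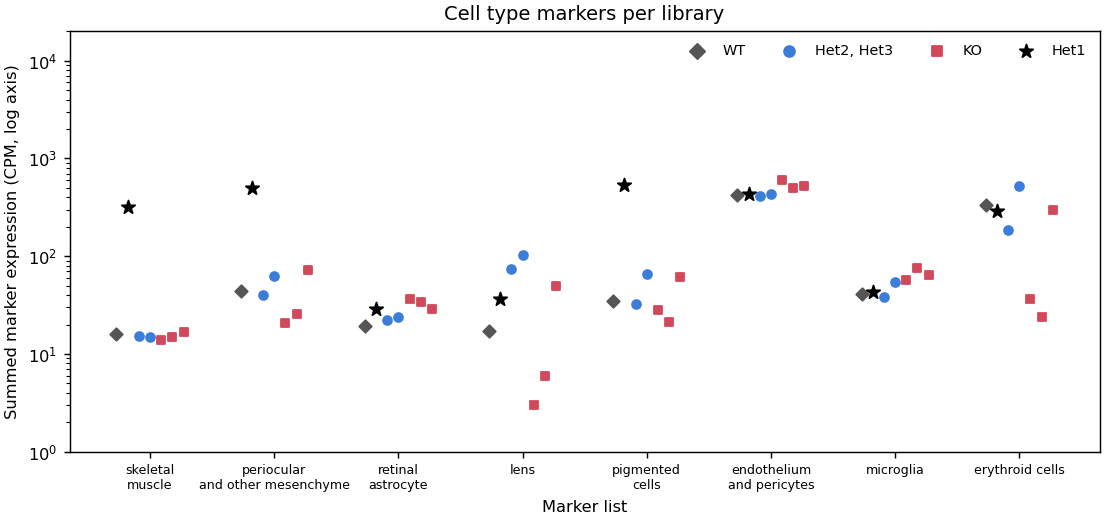
Summed CPM of each marker list on a log axis, with 1 symbol per library. Het1 (stars) lies far above the other libraries for muscle (318 CPM), mesenchyme (501 CPM) and pigment cells (535 CPM), and KO1 and KO2 are the lowest for lens and erythroid cells.

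Genes next to the members were read beside them. *E130114P18Rik*, a gene on the opposite strand at the start of *Nfia*, shares 5.35 kb with it and also rose, with 38.2, 39.2 and 36.8 CPM in the Het and 48.3, 44.2 and 47.8 CPM in the KO libraries (LFC 0.30, SE 0.0439, adjusted p = 0.0126, edgeR). The RefSeq window of *Nfia* printed above lies inside this gene too, but before the *Nfia* span and outside the shared stretch. The libraries were stranded, but the counting options are not given in the sources used here, so reads of the shared stretch could have gone to either gene. *Zdhhc21*, which encodes a palmitoyltransferase and lies 93.0 kb beyond *Nfib*, rose with an LFC of 0.38 (SE 0.0365, adjusted p = 0.00498, edgeR). The antisense transcript *Gm11266* within *Nfib* had at most 69 counts in a library (LFC 0.55, adjusted p = 0.287, edgeR), and *Gm16104* within *Nfic* at most 31 (0.60, adjusted p = 0.287, edgeR).
None of the tested neighbours of *Nfix* and *Nfic* was called. *Trmt1*, a tRNA methyltransferase gene that ends 0.068 kb from *Nfix*, had an LFC of 0.052 (SE 0.0513, adjusted p = 0.526, edgeR), and *Dand5*, 15.1 kb away on the other side, of 0.29 (adjusted p = 0.103, edgeR). *Lyl1* and *G430095P16Rik*, which overlap *Nfix* on the opposite strand, stayed below 0.691 CPM in all libraries, with LFCs of 0.024 and 0.41 (adjusted p = 0.973 and 0.399, edgeR). Beside *Nfic*, *Celf5* had 0.0026 (adjusted p = 0.977, edgeR) and *Smim24* -0.21 (adjusted p = 0.400, edgeR).

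The genes that followed each member most closely were found by the root mean square difference of centred log2(CPM + 1) over the 7 libraries, among 11320 other genes with a mean of at least 5 CPM. This is a description of likeness, and all libraries share the same genotype groups. The measure counts the size of a change, so members that rise by unlike amounts can rank far apart despite a shared direction. Over the libraries, the SD of log2(CPM + 1) was 0.768 for *Nfix*, 0.298 for *Nfib* and 0.207 for *Nfia*. Nearest to *Nfix* were *Gad1* (difference 0.21), which encodes an enzyme of GABA synthesis, *Pdc* (0.23), which encodes the photoreceptor protein phosducin, and *Adamts15* (0.24), a secreted protease gene. *Gad1* was at 3.57 CPM in WT, 3.85 to 5.06 CPM in Het and 10.9 to 12.3 CPM in KO, with Het1 the highest Het library as in *Nfix*. Nearest to *Nfib* were *Unc80* (0.076), *Lrp4* (0.081) and *Prrg2* (0.086). Nearest to *Nfia* were *Reps2* (0.049), *Mcc* (0.055) and *Ptn* (0.055), and nearest to *Nfic* *Arhgap20* (0.036), *B3galt6* (0.046) and *Aurkaip1* (0.046). Within the family, *Nfia* was the 8th nearest of all genes to *Nfib*, but *Nfib* only the 96th nearest to *Nfia*, and *Nfix* came 10937th for *Nfib* and 11129th for *Nfia*. The other members came 173rd (*Nfib*), 433rd (*Nfia*) and 857th (*Nfic*) for *Nfix*.

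The late RPC list sets the family beside genes of that stage. Of its 20 genes, none of them an NFI gene, 6 were called higher in KO and 0 lower, where 4.01% and 3.21% of all genes tested were, with a median LFC of 0.14 against -0.0047 over all genes tested. *Sox8* and *Hes5* are named in the study's own text from the same libraries, so the count is not independent evidence of a direction. *Sox8*, a glial Sox factor, had an LFC of 0.84 (adjusted p = 0.00627), *Car2*, a carbonic anhydrase of Müller glia, 0.79 (adjusted p = 0.0143), and *Crym*, a thyroid hormone binding protein, 0.63 (adjusted p = 0.0197, all edgeR). *Hes5* (0.32) and *Notch1* (0.295), which belong to Notch signalling, were also called. The most abundant genes of the list were not called: *Dkk3* had -0.17, *Glul* 0.0047 and *Vim* -0.21. For *Vim* the adjusted p was 0.0194 (edgeR) and only the fold limit kept it from being called lower. *Nfix* had a larger LFC than any of the 20, and among the called genes *Nfib* and *Nfia* came between *Crym* and *Hes5*. Without Het1 the count was again 6. It was 1 without Het2, 2 without Het3 and 2 without KO2.
Of 16 early RPC genes, 6 were called lower in KO, where 3.21% of genes tested were, and 0 higher, with a median of -0.31. The genes called were *Sfrp2* (-1.05), *Atoh7* (-0.81), *Foxp4* (-0.72), *Hmga2* (-0.58), *Fgf15* (-0.49) and *Foxp1* (-0.42). The study's text names *Sfrp2* and *Foxp1* too. *Ccnd1*, the most abundant, had 0.10 and was not called. Without Het1 the count was again 6, and without Het2 it was 3.

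The NFI target list holds 16 genes that are known from other neural tissue as targets of NFI proteins. They were not sorted by whether NFI raises or lowers them, so counts and median have no single expected direction. Of the 15 tested, 3 were called higher and 2 lower in KO (4.01% and 3.21% of all genes tested were), with a median LFC of 0.076. *Gabra6*, a target in cerebellar granule cells, was at 0 counts in all libraries. Those higher are glial genes, and *Gfap* and *S100b* are the same calls as in the astrocyte list above. The list's *Zcchc24* (LFC 0.44), *Mmd2* (0.30), *Aldoc* (0.25), *Apcdd1* (-0.22) and *Aqp4* (0.12), the last also an astrocyte marker, were not called. *Gfap*, the astrocyte filament gene, was at 4.14, 2.90 and 4.48 CPM in the Het and at 13.3, 10.1 and 7.57 CPM in the KO libraries (LFC 1.43, SE 0.244, adjusted p = 0.0189, edgeR). *S100b* went from 0.593 ± 0.119 to 1.45 ± 0.137 CPM (SD, n = 3 each; LFC 1.29, adjusted p = 0.0126, edgeR) and *Fabp7*, the radial glia fatty acid binding protein gene, from 42.9 ± 3.02 to 58.8 ± 4.48 CPM (0.45, adjusted p = 0.0148, edgeR). Those lower were *Cntn2*, an axonal adhesion molecule gene activated by NFI in granule neurons and also expressed by ganglion cells, and *Insc*, a spindle orientation gene reported to be a target of NFIX. *Cntn2* went from 454 ± 27.97 to 210 ± 45.6 CPM (SD, n = 3 each; LFC -1.11, adjusted p = 0.0100, edgeR) and *Insc* from 3.21 ± 0.421 to 1.47 ± 0.356 CPM (-1.13, adjusted p = 0.0193, edgeR). The 2 other abundant genes, *Cdh2* and *Ezh2*, had LFCs of -0.067 and 0.076 and were not called. Without Het1, 4 were called higher and 2 lower; in all, 1 was called without Het2, 3 without Het3 and 3 without KO2.
Bipolar cells are among the late-born cells that NFI genes are known to promote. Of 10 bipolar genes, 0 were called higher and 2 lower, beside 4.01% and 3.21% of all genes tested, with a median of -0.37. Without Het1 the median was -0.23 and *Pcp2* was called higher. Several of these genes were barely expressed, *Pcp2* for example with a mean of 0.341 CPM over all libraries. The counts and the median therefore say little about bipolar cells at E16. Without KO3 the calls were 3 lower and 1 higher (*Prdm8*). *Bhlhe23* had an LFC of -1.88 (adjusted p = 0.00480, edgeR) at 1.09 ± 0.182 CPM in Het and 0.297 ± 0.0174 CPM in KO (SD, n = 3 each), and *Isl1*, which also marks ganglion cells, of -0.68 (adjusted p = 0.00209, edgeR). *Otx2*, the most abundant, had 0.12 (adjusted p = 0.216, edgeR), and *Trpm1*, also a melanocyte gene, was at 117 CPM in Het1 against 4.44 to 41.9 CPM elsewhere.

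**Figure D5:**
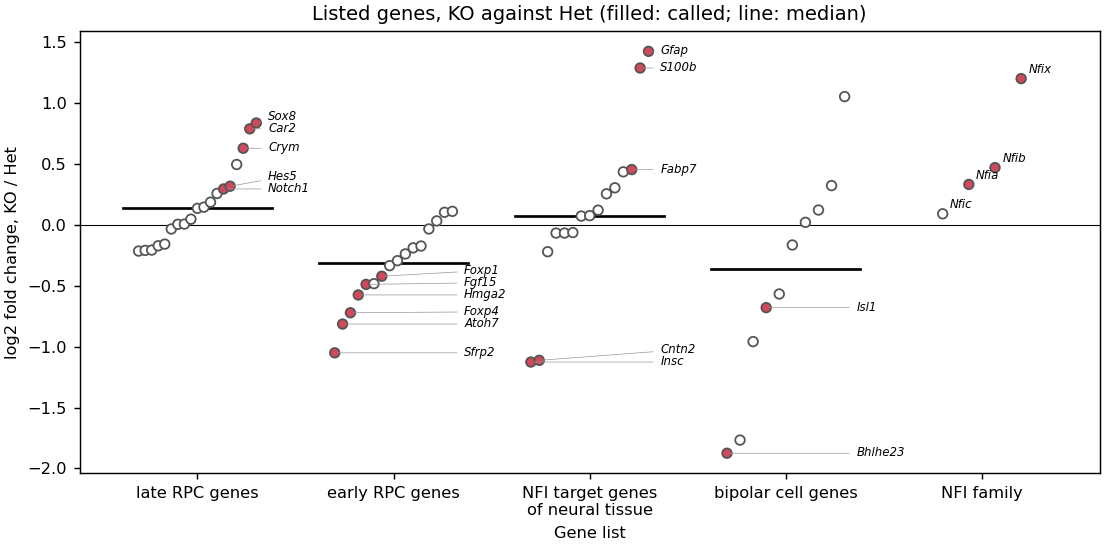
The log2 fold change of KO over Het (vertical axis) for the tested genes of 4 lists, 1 late RPC gene left out, and for the NFI family, with filled points where the gene was called and a line at each list's median. The late RPC median is 0.14 and the early RPC median -0.31, and *Nfix* (1.201) lies above every late RPC gene.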

How the data were processed

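Stranded mRNA libraries had been prepared from pools of retinas. Per the study's methods, the authors ran rMATS-turbo with its STAR alignment on GRCm38 and GENCODE M10 and took counts from featureCounts, and the deposited table holds whole-number counts per gene without normalization. Tool versions, strand and multi-mapping options are not given in the sources used here, so reads of overlapping genes are uncertain. The table has 0 other value columns and every row names a gene.

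From these counts, genes were kept by filterByExpr (20019 of 48440) and scaled by TMM in edgeR 4.0.16 (R 4.3.3). All 7 libraries entered one quasi-likelihood fit across all genes, and KO was compared with Het, with Benjamini-Hochberg adjustment over the genes tested. The call limits on adjusted p and fold follow the study's methods. The standard error is the log2 fold change over the square root of F. The common dispersion was 0.0460. Scripts were tested on simulated data. TPM used exon lengths of GENCODE M21 (GRCm38), a later release than the one counted on, which placed 48058 of these rows. The smallest count of a member, 1218, carries a counting error of 2.87%. WT has no replicate. Whether libraries of a genotype came from separate litters is not stated, so p-values measure the spread between these pools.

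The members, the gene lists and the tests were chosen with earlier results of these data known. Named genes are the members, *Ptbp1*, genes overlapping or next to a member, and up to 6 called and the 3 most abundant genes of each list. Also named are the 3 most abundant genes of each marker list except the retina list. So are the 3 with the smallest root mean square difference to each member. Pseudogenes and transcripts below the filter near the members were left unnamed. *Pax6*, *Six3*, *Lhx2*, *Myog*, *Rpe65*, *Lim2*, *Pecam1*, *Cdh5*, *Cx3cr1*, *Pax2*, *Pcp2*, *Prdm8* and *Gabra6* were named after their values were seen. The same holds for *Aqp4*, *Zcchc24*, *Mmd2*, *Aldoc* and *Apcdd1*. Alternatives were DESeq2 1.42.0, RLE and upper-quartile scaling, no expression filter, a minimum of 10 counts per library, Het and KO alone, the replicate number as a block, adjusted p alone, glmTreat, each library left out, and other lengths for TPM. Splicing was not analysed here, and the values of 2 listed genes are not reported here.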

Additional observations from a re-analysis of the deposited data

How the results depend on the processing

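All 4 members kept a positive log2 fold change under each of 15 alternatives, and *Nfic* was called under none. *Nfib* was called under 12, *Nfix* under 9 and *Nfia* under 7. Among the alternatives, adjusted p alone reuses the main fit without the fold limit, so it could not end these calls. A test against the fold limit itself (glmTreat) ended all member calls, with adjusted p of 0.162 for *Nfix* (log2 fold change 1.201), 0.183 for *Nfib* (0.47) and 0.576 for *Nfia* (0.33), and called 217 genes in place of 1445; it called 1 late RPC, 3 early RPC and 2 NFI target genes. An adjusted p alone called 2221 genes. With each library left out, the log2 fold change ranged from 1.01 to 1.61 for *Nfix*, from 0.37 to 0.54 for *Nfib* and from 0.25 to 0.38 for *Nfia*, and edgeR called 386 to 1674 genes (386 without Het2, 496 without Het3, 612 without KO2), 1 to 6 late RPC, 3 to 7 early RPC, 1 to 6 NFI target and 2 to 4 bipolar genes. The difference of the *Nfib* share then ranged from -0.457 to 1.497 percentage points, turning sign without Het1 (-0.311) and without KO3 (-0.457), and the other shares and the family sum kept their sign. The cause of these losses was not tested.

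Deviations of same-numbered Het and KO libraries correlated at -0.12, 0.26 and 0.019 across genes, which gave no clear sign of pairing. With 3 libraries per genotype this check cannot exclude it. With the replicate number as a block, edgeR called 1268 genes, *Nfix* (log2 fold change 1.28, adjusted p = 0.0196) and *Nfib* (0.47, adjusted p = 0.0270), but not *Nfia* (0.33, adjusted p = 0.0736). Het1, KO1 and KO3 correlated better with another number than with their own, and the block changed no other member's call. Every member had at least 1218 counts in each library, and WT has no replicate.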
